A study of Mus musculus with 9 samples.

Results

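Transcripts of 9 subunits of the vacuolar ATPase were followed in HL-1 cells, a mouse cell line that the labels describe as cardiomyocytes from heart. The subunits were those of 10 given gene names that matched a transcript cluster (a group of probes for 1 transcript) annotated with a single symbol, and each of the 9 had 1 such cluster among the 30050 genes measured. They were Atp6v1d, Atp6v0d1, Atp6v1h, Atp6v1c1, Atp6v1a, Atp6v0b, Atp6v1b2, Atp6v1g1 and Atp6v1e1, while Atp6v0c, a proteolipid of the same pump, was not analysed here. DOX_IFNg cells were given 0.3 µM doxorubicin and 20 ng/ml interferon gamma, DOX cells 0.3 µM doxorubicin, and Con cells phosphate-buffered saline, with 3 arrays in each group. All groups were cultures of 1 cell line, and the labels do not say whether the arrays of a group came from separate cultures, so a p-value here covers only array-to-array spread, part or all of it possibly technical. The genes were chosen by name with their differences against Con on these 9 arrays already known, Atp6v1d being among the largest. The comparisons with Con, which share the same Con arrays, are therefore given for the 9 subunits as descriptions with no test. The related gene lists were also chosen with earlier results of these data known. Their counts and adjusted p-values therefore lend no independent weight.

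The vacuolar ATPase is a rotary pump that hydrolyses ATP to move protons into lysosomes, endosomes and the Golgi apparatus. Its V1 sector, in the cytosol, hydrolyses ATP and turns a central shaft, and its V0 sector, in the membrane, carries protons on a turning ring. Peripheral stalks hold the V1 head still while the rotor turns, and the sectors can come apart and rejoin. Doxorubicin, an anthracycline that poisons topoisomerase II, is a weak base and gathers in acidic organelles. The transcription factors Tfeb, Tfe3 and Mitf are known to drive lysosomal and pump genes through an E-box element with the core CACGTG.

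The RefSeq table of GRCm38.p6 held a promoter window of 250 bases before to 50 bases after the start for 5 of the 9 subunits. They are shown because 3 of them hold the E-box core while 2 do not, Atp6v1d and Atp6v1e1, which had the highest and the lowest difference between DOX and Con. In the first 3 lines capitals mark CACGTG, extended to TCACGTGA where the flanking bases match, and in the last 2 they mark GGGCGG, the GC box.
Atp6v0d1, GRCm38.p6 chr8:105566015-105566314, minus strand: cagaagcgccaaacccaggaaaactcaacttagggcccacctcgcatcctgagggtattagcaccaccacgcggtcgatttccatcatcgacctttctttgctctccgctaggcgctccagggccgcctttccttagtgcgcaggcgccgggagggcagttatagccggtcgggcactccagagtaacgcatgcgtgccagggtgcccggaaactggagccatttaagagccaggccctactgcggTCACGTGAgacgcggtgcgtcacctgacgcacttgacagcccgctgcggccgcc
Atp6v1a, GRCm38.p6 chr16:44139210-44139509, minus strand: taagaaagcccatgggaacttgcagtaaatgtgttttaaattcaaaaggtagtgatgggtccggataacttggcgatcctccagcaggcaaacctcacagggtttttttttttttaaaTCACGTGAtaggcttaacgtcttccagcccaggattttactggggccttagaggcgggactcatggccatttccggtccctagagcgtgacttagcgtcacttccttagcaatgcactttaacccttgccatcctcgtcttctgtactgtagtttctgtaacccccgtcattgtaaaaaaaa
Atp6v0b, GRCm38.p6 chr4:117887280-117887579, minus strand: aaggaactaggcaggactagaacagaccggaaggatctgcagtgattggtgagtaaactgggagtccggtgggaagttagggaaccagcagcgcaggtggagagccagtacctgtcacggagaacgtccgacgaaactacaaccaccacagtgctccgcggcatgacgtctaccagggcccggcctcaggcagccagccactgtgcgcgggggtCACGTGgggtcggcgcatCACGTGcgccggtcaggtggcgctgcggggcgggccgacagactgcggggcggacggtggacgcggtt
Atp6v1d, GRCm38.p6 chr12:78861589-78861888, minus strand: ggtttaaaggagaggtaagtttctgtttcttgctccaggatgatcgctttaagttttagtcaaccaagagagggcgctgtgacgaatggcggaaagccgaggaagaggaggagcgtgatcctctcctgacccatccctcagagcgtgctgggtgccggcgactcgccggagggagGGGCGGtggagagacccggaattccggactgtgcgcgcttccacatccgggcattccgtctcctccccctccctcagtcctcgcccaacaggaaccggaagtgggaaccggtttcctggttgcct
Atp6v1e1, GRCm38.p6 chr6:120822649-120822948, minus strand: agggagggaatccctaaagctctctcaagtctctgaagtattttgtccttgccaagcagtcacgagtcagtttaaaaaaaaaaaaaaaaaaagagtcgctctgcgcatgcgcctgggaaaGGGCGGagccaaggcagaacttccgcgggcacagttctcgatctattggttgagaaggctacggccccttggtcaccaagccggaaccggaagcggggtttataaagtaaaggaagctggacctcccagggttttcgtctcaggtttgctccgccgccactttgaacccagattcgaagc

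Both strands were searched, and the motifs overlap by construction, since TCACGTGA contains CACGTG. Of the 32851 promoter windows in the table, 7.15% held CACGTG, 0.974% held TCACGTGA and 35.7% held GGGCGG. Atp6v0d1 had 1 TCACGTGA across its start, from base -4 to base 4, Atp6v1a had 1 from base -132 to base -125, and Atp6v0b had CACGTG beginning at bases -36 and -18. GGGCGG began at base -75 in Atp6v1d, at base -130 in Atp6v1e1 and at bases 10 and 30 in Atp6v0b. The windows had 45.3% (Atp6v1a) to 65.0% (Atp6v0b) G and C, against a median of 52.7% over all windows. Among 7 further subunits of most tissues with a window in the table, 1 held CACGTG, Atp6v0e, and all 7 held GGGCGG. Of 14 genes of the mitochondrial ATP synthase with a window, 4 held CACGTG and 0 held TCACGTGA. Those with CACGTG were 28.6% of the 14, against 8.09% of all genes with a window. Of 21 other subunit and assembly genes with a window, which include the 7 above, 4 held CACGTG, namely Atp6v0e, Ccdc115, Tbc1d24 and Vma21. Whether a motif goes with a difference in expression was not tested. A match of letters is a description of the window and not of binding.

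**Figure D1:**
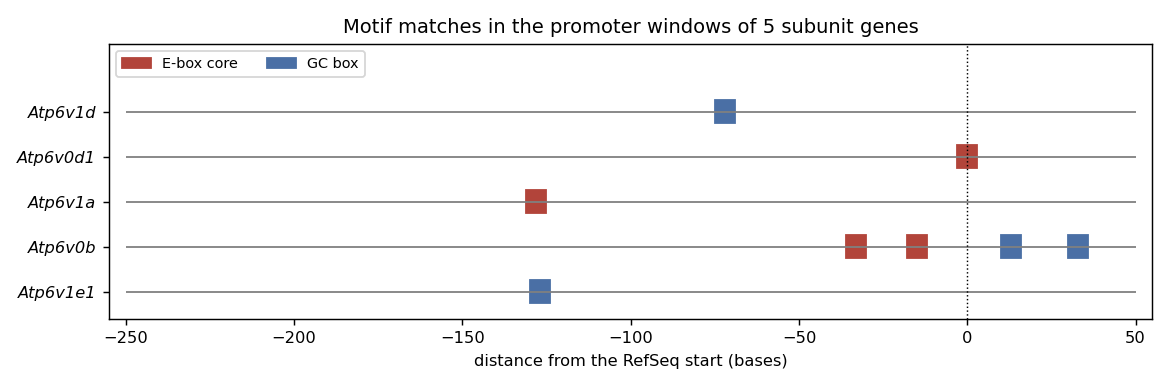
Positions of the E-box core CACGTG (red) and the GC box GGGCGG (blue) in the 300-base windows of 5 subunit genes, by distance from the RefSeq start in bases. Atp6v0d1, Atp6v1a and Atp6v0b hold the E-box core, and Atp6v1d and Atp6v1e1 hold a GC box but no E-box core.

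Values are log2 expression as deposited. The arrays had medians from 4.08 to 4.17, and all 9 subunits had means above 4.69, the 95th percentile of olfactory and vomeronasal receptor genes, which served as a limit for dim genes. Calls are by limma, at a Benjamini-Hochberg adjusted p under 0.05 across the 30050 genes. In DOX minus Con 2423 genes were called higher and 2264 lower, and after quantile normalization 3069 and 1902. In DOX_IFNg minus Con 2407 were called higher and 2827 lower, and after quantile normalization 3075 and 2273. Of 9 heart muscle markers measured, 2 lay above the limit in each group (Tnnt2 and Nkx2-5), and Myh6, Myl7 and Nppa lay under it, so most defining heart markers were not seen above the limit. The mean level of the 9 was 4.47 to 4.54 on DOX_IFNg arrays, 4.50 to 4.55 on DOX arrays and 4.60 to 4.65 on Con arrays. Of 4 skeletal muscle markers 2 lay above it in DOX_IFNg and 3 in DOX and in Con, and the mean level of all 4 was 5.54 to 5.67 on DOX_IFNg arrays, 5.65 to 5.87 on DOX arrays and 6.57 to 6.70 on Con arrays. They did not move as 1 group, since Myog fell by 3.42 and Acta1 by 0.70 in DOX minus Con, Myod1 rose by 0.76 and Myf5 was dim. Markers of macrophages and osteoclasts, cell types rich in this pump, were mostly dim. Of 6 macrophage and immune markers only Cd14 lay above the limit, and their mean level was 4.17 to 4.23 on DOX_IFNg arrays, 4.18 to 4.27 on DOX arrays and 4.21 to 4.23 on Con arrays. Of 4 osteoclast markers 0 lay above it, with mean levels of 3.85 to 3.90 on DOX_IFNg arrays, 3.83 to 3.88 on DOX arrays and 3.88 to 3.92 on Con arrays, and of 4 endothelial markers also 0. Of 4 fibroblast markers the 3 collagens lay above it and Thy1 was dim, and the mean level of all 4 was 10.5 to 10.6 on DOX_IFNg arrays, 10.6 on each DOX array and 11.4 to 11.6 on Con arrays. In DOX minus Con Col3a1 fell by 1.87, Col1a1 by 1.13 and Col1a2 by 1.03, while Thy1 rose by 0.21. The part of the muscle and collagen shifts in the results was not tested. In RNA of whole cultures, fewer cells of a type and less RNA per cell cannot be told apart.

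Of the 9 subunits, 8 were higher in DOX than in Con and 1, Atp6v1e1, was lower. The 8 were also called in that comparison, where 8.06% of all genes were called higher and 7.53% lower, and nothing is read from that count because the names were chosen with it known. The median difference of the 9 was 0.93 on the log2 scale, against -0.01 over all genes. In DOX_IFNg minus Con the same 8 were called higher, where 8.01% of all genes were, and Atp6v1e1 was called lower, where 9.41% were, with nothing read from either count. The median there was 0.98, against -0.02 over all genes. All 9 lay above the limit for dim genes. A fit of only the 12127 genes above it called 20.3% higher in DOX minus Con and 19.5% in DOX_IFNg minus Con. It called 2315 genes lower in DOX minus Con and 2911 in DOX_IFNg minus Con. On all 9 members the 3 DOX arrays lay on 1 side of the 3 Con arrays without overlap, 8 above (15.7% of all genes) and 1 below (17.2%). The DOX_IFNg arrays did so as well, 8 above (14.5% of all genes) and 1 below (18.5%).

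**Figure D2:**
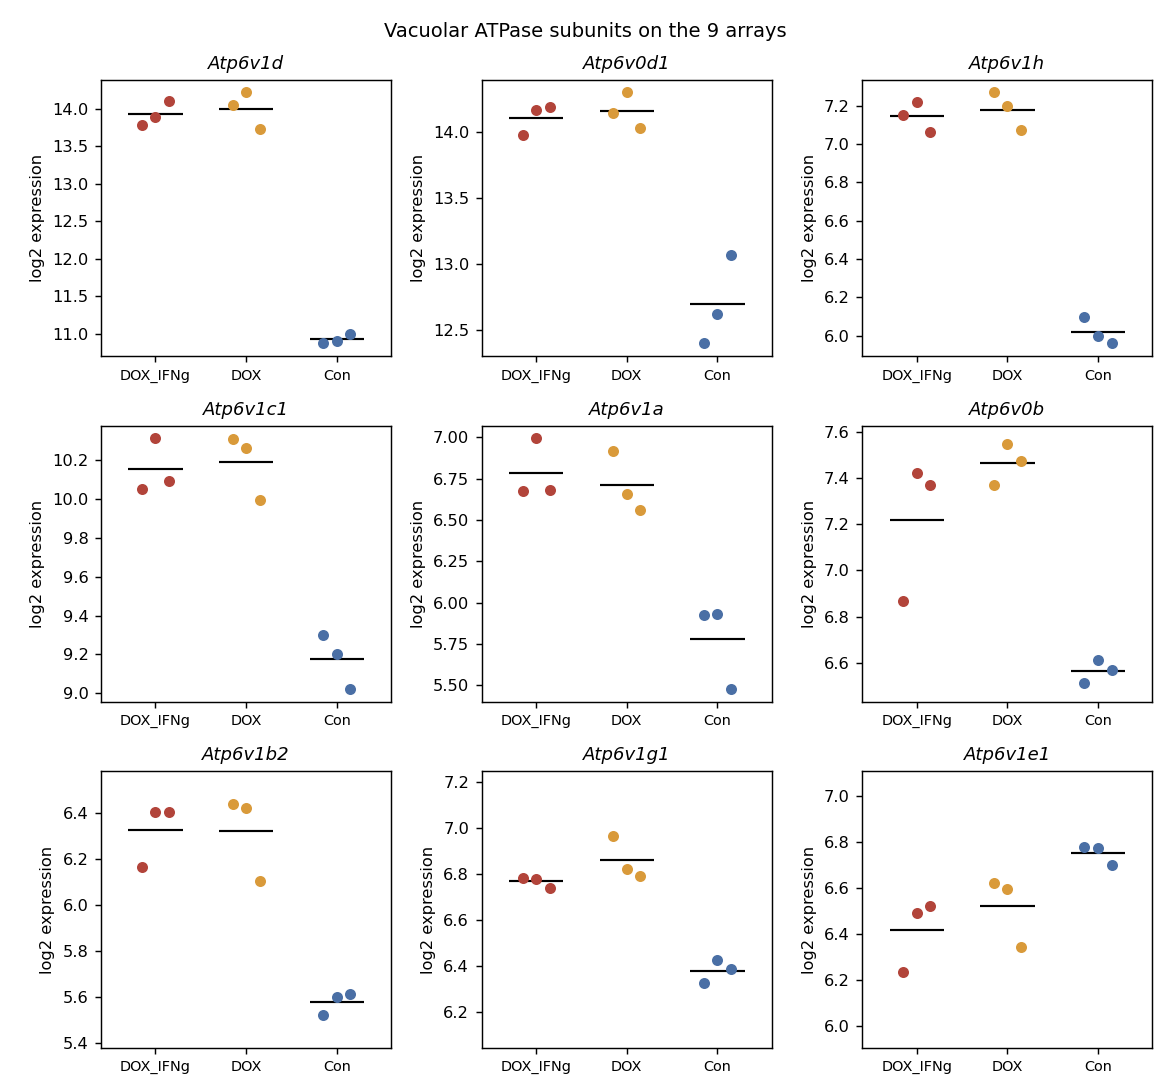
Log2 expression of the 9 subunits (vertical axes, which differ in range and do not start at 0) on the 3 DOX_IFNg, 3 DOX and 3 Con arrays, with points for arrays in order of replicate number and lines for group means. Treated arrays lie above Con arrays for 8 subunits, by most for Atp6v1d, and below them for Atp6v1e1.

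Of the subunits followed here, those of the rotor had the widest spread of differences, which rests on Atp6v1d alone. Atp6v1d encodes subunit D, the central shaft that turns inside the V1 head. It lay at 13.78, 13.89 and 14.11 on the DOX_IFNg arrays, at 14.05, 14.22 and 13.73 on the DOX arrays, and at 10.87, 10.90 and 10.995 on the Con arrays. Every treated array was thus more than 2 log2 units above every Con array, and the treated groups overlapped. The difference was 3.08 in DOX minus Con (SE 0.13, 8.44-fold), the 4th highest of all genes, and 3.00 in DOX_IFNg minus Con (SE 0.13, 8.01-fold), the 7th highest.

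Atp6v0d1 encodes subunit d, which joins the shaft to the membrane ring. It lay at 13.98, 14.17 and 14.19 in DOX_IFNg, at 14.15, 14.31 and 14.03 in DOX, and at 12.39, 12.62 and 13.07 in Con. Con replicate 3 was the highest of its group, and the SD of 0.34 in Con was the largest of any subunit in any group. The difference was 1.47 in DOX minus Con (SE 0.16, 2.77-fold) and 1.42 in DOX_IFNg minus Con (SE 0.16, 2.68-fold).

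Atp6v0b encodes a proteolipid of the ring. It lay at 6.87, 7.42 and 7.37 in DOX_IFNg, at 7.37, 7.55 and 7.48 in DOX, and at 6.51, 6.61 and 6.57 in Con. DOX_IFNg replicate 1 lay between the Con arrays and all other treated arrays. The difference was 0.90 in DOX minus Con (SE 0.13, 1.87-fold) and 0.66 in DOX_IFNg minus Con (SE 0.13, 1.58-fold).

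The catalytic head, represented by Atp6v1a and Atp6v1b2 alone, showed differences of closer size. Atp6v1a encodes subunit A, which holds the ATP-hydrolysing sites. It lay at 6.67, 6.995 and 6.68 in DOX_IFNg, at 6.92, 6.66 and 6.56 in DOX, and at 5.93, 5.93 and 5.47 in Con, where replicate 3 was the lowest. The difference was 0.93 in DOX minus Con (SE 0.15, 1.91-fold) and 1.01 in DOX_IFNg minus Con (SE 0.15, 2.01-fold). Atp6v1b2, the B form of most tissues, which alternates with A around the head, lay at 6.16, 6.40 and 6.40 in DOX_IFNg, at 6.44, 6.42 and 6.10 in DOX, and at 5.52, 5.60 and 5.61 in Con. Its differences were 0.74 in each comparison with Con (SE 0.10, 1.67-fold in DOX and 1.68-fold in DOX_IFNg).

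The parts that hold the head still, and those that join the sectors, ran from clearly higher to lower. Atp6v1h encodes subunit H, which bridges V1 to the membrane and silences V1 once it is released. It lay at 7.15, 7.22 and 7.06 in DOX_IFNg, at 7.27, 7.20 and 7.07 in DOX, and at 6.10, 6.0 and 5.96 in Con. The difference was 1.16 in DOX minus Con (SE 0.07, 2.23-fold) and 1.12 in DOX_IFNg minus Con (SE 0.07, 2.18-fold). Atp6v1c1 encodes subunit C, which clamps the stalks to the membrane sector and leaves when the sectors part. It lay at 10.05, 10.31 and 10.09 in DOX_IFNg, at 10.31, 10.26 and 9.99 in DOX, and at 9.30, 9.20 and 9.02 in Con. The difference was 1.01 in DOX minus Con (SE 0.11, 2.02-fold) and 0.98 in DOX_IFNg minus Con (SE 0.11, 1.97-fold).

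Subunits E and G pair to form each peripheral stalk, and their clusters differed from Con in opposite directions. Atp6v1g1, the G form of most tissues, lay at 6.78, 6.78 and 6.74 in DOX_IFNg, at 6.97, 6.82 and 6.79 in DOX, and at 6.32, 6.43 and 6.39 in Con. Its difference was 0.48 in DOX minus Con (SE 0.06, 1.39-fold) and 0.39 in DOX_IFNg minus Con (SE 0.06, 1.31-fold). Atp6v1e1, the E form of most tissues, lay at 6.23, 6.49 and 6.52 in DOX_IFNg, at 6.62, 6.59 and 6.34 in DOX, and at 6.78, 6.77 and 6.70 in Con. Its difference was -0.23 in DOX minus Con (SE 0.10) and -0.33 in DOX_IFNg minus Con (SE 0.10). Atp6v1e1 was not called in DOX minus Con, and its call in DOX_IFNg minus Con was lost under 14 of 17 alternatives. Atp6v1e2, the E form known from testis and not among the 9, averaged 6.28 ± 0.15 in DOX and 5.83 ± 0.17 in Con (SD, n = 3 each). It rose by 0.45 in DOX minus Con (SE 0.10, limma adjusted p = 0.0183). The call was lost when either of DOX replicates 1 and 2 was left out (adjusted p up to 0.0698). It was also lost with a block for the arrays that reached the highest value of the table (adjusted p = 0.0818). They include all 3 DOX arrays and 1 Con array. Here and below, that block therefore overlaps with DOX minus Con and leaves this comparison less precise.

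No subunit was called when DOX_IFNg cells were set against DOX cells. By limma 0 of the 9 were called in DOX_IFNg minus DOX (adjusted p from 0.977 to 0.999), 0 had an unadjusted p under 0.05, and 0 of all 30050 genes were called, while 5.0% of genes had an unadjusted p under 0.05. Of the differences, 7 were below 0 and 2 above, from -0.24 for Atp6v0b (SE 0.13, 95% interval from -0.55 to 0.06) to 0.07 for Atp6v1a (SE 0.15, from -0.28 to 0.42). Atp6v1g1 was the 1 subunit whose arrays did not overlap, being lower in DOX_IFNg with a difference of -0.09 (SE 0.06, from -0.23 to 0.04), as in 6.69% of all genes, and 0 subunits were higher without overlap, as in 4.56% of all genes. The interval of Atp6v1d ran from -0.37 to 0.22 and that of Atp6v0d1 from -0.41 to 0.32. These intervals do not show that the groups were alike.

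**Figure D3:**
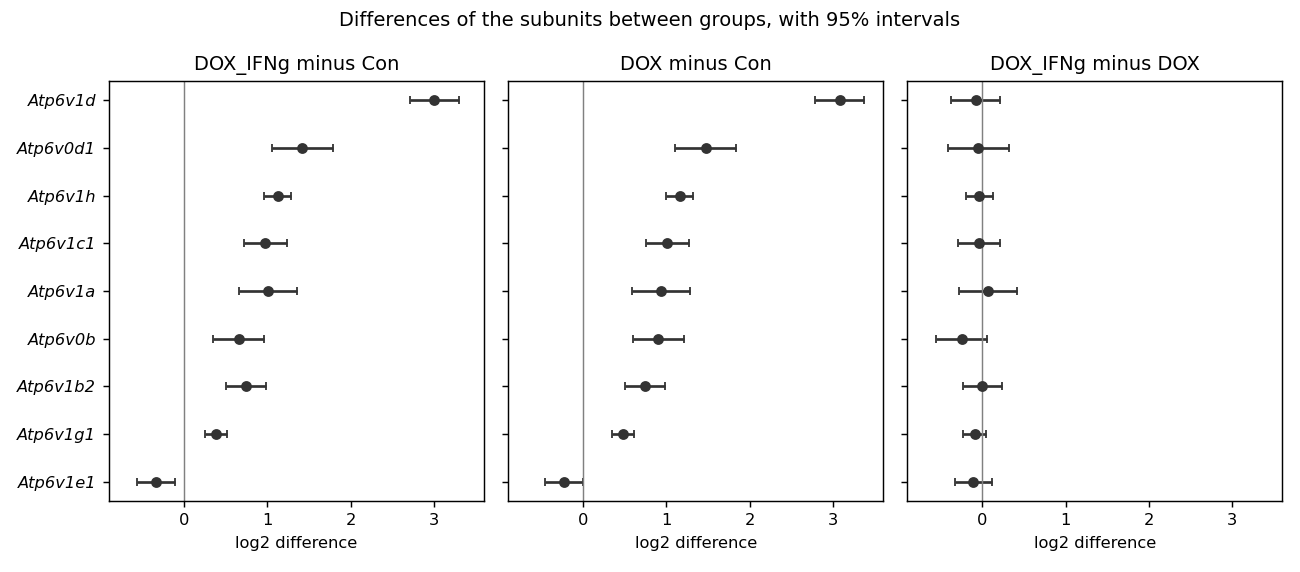
Log2 differences of the 9 subunits in DOX_IFNg minus Con, DOX minus Con and DOX_IFNg minus DOX (horizontal axes), with 95% intervals from limma as bars. Those against Con run from -0.33 and -0.23 for Atp6v1e1 to 3.00 and 3.08 for Atp6v1d, and all intervals of DOX_IFNg minus DOX include 0.

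Within the treated groups the same arrays were low for most subunits. DOX replicate 3 had the lowest value of its group in 8 of 9 subunits, with a mean deviation from the group means of -0.14, and Atp6v0b was the exception. DOX_IFNg replicate 1 had the lowest in 7 of 9, with a mean deviation of -0.13. The share of all genes lowest on these arrays is not given here, so the counts are not read as a trait of the subunits. Among Con arrays replicate 1 was lowest in 5 and replicate 3 in 4, with mean deviations between -0.01 and 0.02. The mean of the 9 subunits relative to Con was 0.87, 1.09 and 1.03 on the DOX_IFNg arrays and 1.14, 1.13 and 0.92 on the DOX arrays, so the arrays of the treated groups overlapped. Without Atp6v1d it was 0.62, 0.86 and 0.77 in DOX_IFNg and 0.89, 0.86 and 0.68 in DOX.

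The labels name no batch. The highest value of the table, 19.9315, was reached on 6 arrays, namely DOX_IFNg replicates 1 and 2, all 3 DOX arrays and Con replicate 1, and not on the other 3, and whether this marks a technical difference was not tested. Within the 6, against Con replicate 1 alone, DOX differences ran from -0.26 for Atp6v1e1 and 0.53 for the next lowest to 3.13 for Atp6v1d, and DOX_IFNg differences from -0.42 and 0.46 to 2.96. Within the other 3, DOX_IFNg replicate 3 minus the mean of 2 Con arrays ran from -0.21 and 0.33 to 3.16. Each of these differences rests on a single array on 1 side.

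Profiles over the 9 arrays were compared by the root mean square difference of log2 values, each gene centred on its own mean. The 5 genes with named symbols most like Atp6v1d were Mmp2, a secreted gelatinase (0.137), Lims2, an adapter of integrin adhesions (0.168), the stress-responsive kinase Plk2 (0.169), the lipid hydrolase Abhd4 (0.174) and Id2, which blocks DNA binding by helix-loop-helix factors (0.222). The 5 most like the mean of the 9 subunits were Ccdc80 (0.0513), Banp (0.0540), Ptpn7 (0.0548), Etfa, an electron carrier of fatty acid oxidation (0.0600), and Gtf2h1, a subunit of the repair and transcription factor TFIIH (0.0668). Among the 9 subunits the closest to that mean were Atp6v1c1 (0.0844) and Atp6v1h (0.0922), and Atp6v1d (0.953) and Atp6v1e1 (0.620) were farthest. The 5 genes were picked as the closest of all named genes, so that they lay closer than any subunit was nearly fixed in advance. The profiles hold the step from Con to treated arrays, known when the subunits were chosen. In DOX minus Con it was 2.71 to 3.43 for the genes like Atp6v1d and 0.99 to 1.14 for those like the mean. Shared control was not tested.

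The other subunits of most tissues were called in part. Of 8 measured, 3 rose in DOX minus Con, 0 fell and 5 did not pass, with a median difference of 0.39. Over all genes 8.06% were called higher and 7.53% lower. A fit of only the 12127 genes above the limit for dim genes called 20.3% higher, and 5 of the 7 of these subunits tested in it. Atp6ap1, an accessory subunit of the membrane sector, lay at 12.90, 12.90 and 12.84 in DOX and at 11.82, 11.86 and 11.79 in Con, without overlap. It rose by 1.06 (SE 0.05, 2.08-fold, limma adjusted p = 8.12e-06). The a subunits carry the half-channels through which protons enter and leave, and their forms differed in size of change. Tcirg1, the a3 form known from osteoclasts and lysosomes, lay at 6.48, 6.52 and 6.40 in DOX and at 5.44, 5.44 and 5.40 in Con. It rose by 1.04 (SE 0.05, 2.05-fold, limma adjusted p = 9.96e-06), and Atp6v0a1 rose by 0.48 (SE 0.06, adjusted p = 0.00105). Atp6v0a2 differed by 0.25 (adjusted p = 0.0751) and Atp6v0e, a small membrane subunit, by 0.04 (adjusted p = 0.822), and neither passed.

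In DOX_IFNg minus Con 6 of these 8 were called higher, where 8.01% of all genes were, with a median of 0.40. Besides Atp6ap1 (1.02), Tcirg1 (0.95) and Atp6v0a1 (0.43), these were Atp6v1f (0.61), which caps the shaft, Atp6ap2 (0.37), an accessory subunit, and Atp6v0e2 (0.26), which was dim. The last 3 were not called in DOX minus Con (0.54, 0.30 and 0.22), and each lost its call in 7 or 8 of the 9 fits that left out 1 array (adjusted p up to 0.141, 0.0967 and 0.117). No test of DOX_IFNg minus DOX called them.

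Of 7 forms restricted to certain tissues, 3 lay above the limit for dim genes. Over all genes 8.06% were called higher in DOX minus Con and 8.01% in DOX_IFNg minus Con. In DOX minus Con Atp6v1e2 and Atp6v1c2 (0.18, adjusted p = 0.0266) were called higher and 5 did not pass. Atp6v1c2, which was dim, lost its call without any single Con or DOX array (adjusted p up to 0.0963). It also lost its call with a block for the arrays that reached the highest value (adjusted p = 0.1). In DOX_IFNg minus Con these 2 and Atp6v1b1 (0.20) were called, all lost without certain single arrays (adjusted p up to 0.107). Atp6v0d2, the d form known from osteoclasts, and Atp6v0a4, the a form known from kidney, were dim in every group, with differences of 0.01 and 0.03 in DOX minus Con.

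Of 10 assembly genes, 3 rose in DOX minus Con and 7 did not pass, with a median difference of 0.02. Over all genes 8.06% were called higher. A fit of only the genes above the limit called 20.3% higher, and 3 of the 5 assembly genes tested in it. Ccdc115 (0.91, SE 0.12, limma adjusted p = 0.00106), whose mean in Con lay under the limit, and Tmem199 (0.81, SE 0.07, adjusted p = 0.000147) act in the endoplasmic reticulum and Golgi, where the pump is built, and their partner Vma21 was dim and differed by -0.01 (adjusted p = 0.978). Wdr7 (0.30, adjusted p = 0.0108), a partner of the Dmxl proteins that bring the sectors together, lost its call with a block for the arrays that reached the highest value (adjusted p = 0.0687). The same 3 were called in DOX_IFNg minus Con, by 0.90, 0.80 and 0.37.

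Of the MiT/TFE factors and the repressor Zkscan3, 1 of 5 was called higher in DOX minus Con, where 8.06% of all genes were. Tfe3 averaged 5.34 ± 0.06 in DOX and 4.71 ± 0.03 in Con (SD, n = 3 each) and rose by 0.63 (SE 0.06, limma adjusted p = 0.000197), and by 0.59 in DOX_IFNg minus Con. Tfeb (0.04, adjusted p = 0.741), Mitf (0.15, adjusted p = 0.260), Tfec (0.09, adjusted p = 0.351) and Zkscan3 (0.01, adjusted p = 0.932) did not pass in DOX minus Con, and Tfeb and Tfec were dim.

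Genes of the lysosome around the pump were called in DOX minus Con as follows. Over all genes 8.06% were called higher and 7.53% lower. A fit of only the 12127 genes above the limit for dim genes called 20.3% higher and 2315 genes lower. In that fit 6 of 9 ion transport, 6 of 15 nutrient sensing and 11 of 13 lysosomal membrane and hydrolase genes were called higher. Those called lower in it were 2, 2 and 0 in the same order. Of 10 genes of endolysosomal ion transport, 6 rose and 2 fell, with a median of 0.36. The chloride-proton exchanger Clcn7 rose by 1.54 (SE 0.10, limma adjusted p = 3.57e-05), the calcium channel Mcoln1 by 0.97 (SE 0.09, adjusted p = 0.000224) and Clcn3 by 0.53, while the exchanger Clcn5 fell by 0.66 (SE 0.05, adjusted p = 9.98e-05), as did, outside the naming rule, the channel Tpcn1 (-0.39, adjusted p = 0.00773). Of 17 genes of nutrient sensing on the lysosome, where the pump is known to act with Ragulator, 6 rose and 2 fell, with a median of 0.12. The folliculin partner Fnip1 (1.41), the GTPases Rragc (1.27) and Rraga (0.71) and Fnip2 (0.40) had the largest rises. The call of Fnip1 was lost when Con replicate 3 or either of DOX replicates 1 and 3 was left out (adjusted p up to 0.0655). It was also lost with a block for the arrays that reached the highest value (adjusted p = 0.0559). Outside the naming rule, the 2 that fell were Lamtor5 (-0.27, adjusted p = 0.0480), which lost its call in each of the 9 fits that left out 1 array, and Rptor (-0.22, adjusted p = 0.0237), which lost it when DOX replicate 3 or either of Con replicates 1 and 2 was left out (adjusted p up to 0.0777) and under median centring (adjusted p = 0.0964). With any 1 array left out, the count that fell was 0 or 1. Of 15 lysosomal membrane proteins, hydrolases and the autophagy receptor Sqstm1, 11 rose and 0 fell, with a median of 0.40, led by Sqstm1 (2.57), Ctsl (1.10), Ctsb (1.09) and Ctsa (0.89).

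The mitochondrial F-type ATP synthase is a related rotary enzyme that makes ATP. Of its 15 genes measured, 0 were called higher and 4 lower in DOX minus Con, with a median of -0.22. In DOX_IFNg minus Con 0 were called higher and 10 lower, with a median of -0.35. Over all genes 8.06% were called higher and 7.53% lower in DOX minus Con, and 8.01% and 9.41% in DOX_IFNg minus Con. A fit of only the 12127 genes above the limit for dim genes called 2315 lower in DOX minus Con. It called 2911 lower in DOX_IFNg minus Con. Of the 12 synthase genes tested in it, 5 and 8 were called lower. The count of 10 was 5 without DOX_IFNg replicate 1 and 6 without DOX_IFNg replicate 2 or without Con replicate 2, and that of 4 was 4 or 5 with any 1 array left out. Atp5g2 (-1.78), Atp5d (-0.68), Atp5g3 (-0.67) and Atp5a1 (-0.35) were lower in DOX minus Con, with limma adjusted p up to 0.00342. No test compared the lists with each other.

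**Figure D4:**
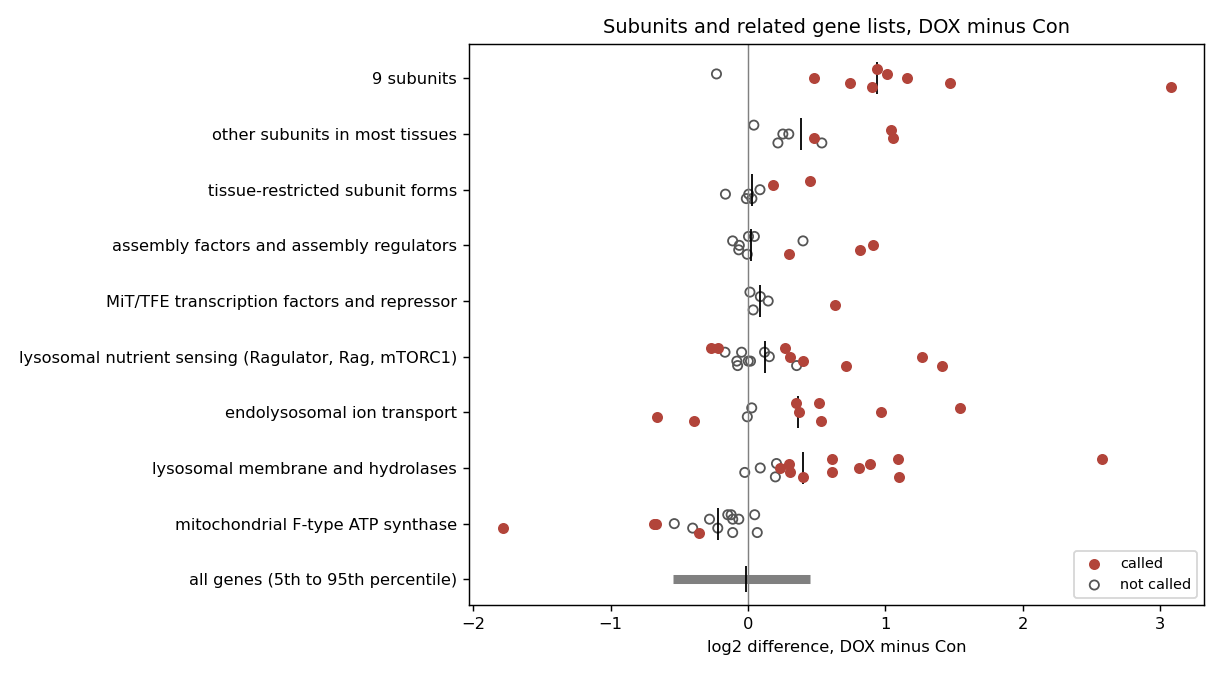
Log2 differences in DOX minus Con (horizontal axis) of the 9 subunits and of 8 related gene lists, filled where called and open where not, with black ticks for medians. The grey bar spans the 5th to 95th percentile of all 30050 genes, from -0.55 to 0.45, and 8 of the 9 subunits lie above its upper end.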

How the data were processed

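RNA of HL-1 cells was measured on 9 Affymetrix mouse arrays. The authors deposited log2 values made with RMA (background correction, normalization and probe summary), per the submitters' processing notes, whose version and settings are not given in the sources used here. Values ran from 2.29 to 19.9, from which a log2 scale was taken. RMA can understate changes of dim and of very bright genes. The highest subunit value was 14.3.

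Of 65527 clusters, 30376 had a single symbol in the platform annotation, 2117 had several and 33034 were not listed. The cluster with the highest mean stood for a gene. Group means were fitted to all 9 arrays with limma 3.58.1 (lmFit and eBayes, 6 residual and 2.41 prior degrees of freedom) in R 4.3.3, two-sided, with Benjamini-Hochberg adjustment over 30050 genes, no filter and no minimum fold. The number of arrays limits the precision, and the 95% interval of the median gene reached 0.19 to each side. On simulated data for DOX minus Con, 200 of 30050 genes were given a change. Of these, 55.2% of changes of 0.5, 88.1% of changes of 1 and 100% of changes of 2 were called, with 10 false calls among 172. In the data 2423 genes were called higher and 2264 lower. The adjusted threshold is laxer where more genes change, so these rates do not carry over to the data.

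The members and lists were chosen with earlier results of these data known. The text names every subunit, each called gene of the other subunits and assembly genes, up to 4 called genes of the remaining lists, the MiT/TFE factors, and the 5 genes most like Atp6v1d and the subunit mean. Clusters of gene families can share probes with near-identical copies. Promoter windows came from RefSeq, GRCm38.p6. Alternatives covered normalization, a filter on dim genes, the arrays fitted, blocks, cluster choice, variance moderation and leaving out each array.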

Additional observations from a re-analysis of the deposited data

How the results depend on the processing

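Each result was recomputed under 17 alternatives, 9 of which left out 1 array. For the subunits in the comparisons with Con, which were known when the genes were chosen, these values are descriptions and support no call. The differences of Atp6v1d ran from 2.97 to 3.36 in DOX minus Con and from 2.91 to 3.37 in DOX_IFNg minus Con, those of Atp6v0d1 from 1.32 to 1.85 and from 1.27 to 1.87. The single subunit called lower in DOX_IFNg minus Con, Atp6v1e1, had an adjusted p of 0.0492. The count was 0 under quantile normalization, median centring, only the 2 groups compared, the replicate block, a block for the arrays that reached the highest value, and trend and robust variance estimation, and 0 to 1 without single arrays (adjusted p up to 0.135). The cause was not tested. The count of other pump and assembly genes called higher in DOX_IFNg minus Con was 12 of 25, and 7 to 10 without single arrays, fits that hold fewer samples. It was 8 in DOX minus Con and 6 to 10 under the alternatives. Over all genes 8.01% were called higher in DOX_IFNg minus Con and 8.06% in DOX minus Con. Counts for the single lists under these settings were added after seeing the data.

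In DOX_IFNg minus DOX no subunit was called under any alternative, and signs of small differences turned. Quantile normalization gave 0.0089 for Atp6v1d, 0.0189 for Atp6v0d1 and 0.0197 for Atp6v1c1. The block for the arrays that reached the highest value gave 0.0045 for Atp6v1h, 0.0093 for Atp6v1c1 and -0.032 for Atp6v1b2. Without single arrays the range was -0.21 to 0.033 for Atp6v1d, -0.11 to 0.024 for Atp6v0d1, -0.089 to 0.0098 for Atp6v1h, -0.13 to 0.023 for Atp6v1c1, -0.035 to 0.17 for Atp6v1a and -0.11 to 0.082 for Atp6v1b2.

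Replicate numbers were not shown to pair the arrays. Deviations of the 9 pairs with the same number correlated between -0.16 and 0.36, and 4 of 9 arrays correlated best with their own number. With the replicate block the counts of subunits called higher against Con stayed at 8, and that of subunits called lower in DOX_IFNg minus Con was 0. RMA values carry no measure of signal over background, so the level of dim genes such as Atp6v0d2, Vma21 and Tfeb has only an upper limit.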

Other observations

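Genes next to the 9 subunits in the RefSeq order of protein-coding genes were looked up after the values were seen. Of 18 neighbours, 15 were measured, and in DOX minus Con 3 were called higher and 1 lower by limma, where 8.06% and 7.53% of all genes were, with a median difference of 0.04. Beside Atp6v1d on chromosome 12, Mpp5, a scaffold of cell polarity, was higher by 0.43 (SE 0.12, adjusted p = 0.0474). Beside Atp6v1g1 Whrn was higher by 0.22 (adjusted p = 0.00914), and beside Atp6v1e1, itself lower, Bcl2l13 was higher by 0.20 (adjusted p = 0.0289). Beside Atp6v0b, itself higher, B4galt2, a galactosyltransferase, was lower by 0.42 (SE 0.05, adjusted p = 0.000478). Both neighbours of Atp6v1h, Atp6v1c1, Atp6v1a and Atp6v1b2 were measured and none of these 8 was called, with differences between -0.11 and 0.23.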
